A study of Mus musculus with 6 samples.

Results

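Immunoglobulin heavy chain variable segments (Ighv) were followed in RNA-seq of mucosa from the middle small intestine of mice lacking alkaline sphingomyelinase (alk-SMase, gene Enpp7). The 3 KO mice (libraries K79S, K82S and K86S) were labelled alk-SMase knockout and the 3 WT mice (W83S, W89S and W90S) wild type, with 1 library per mouse. The paper names C57BL/6 mice where it describes the knocked-out gene, and does not state the strain of each group. In the KO mice exon 2 of Enpp7 had been removed by Cre recombinase, and the driver of the Cre, the age and sex of the mice and the members of each KO and WT pair are not given in the sources used here. The values are FPKM, read counts scaled by gene length and library size, as deposited. Values of single libraries are listed as K79S, K82S, K86S for KO and as W83S, W89S, W90S for WT, in this order. Members were selected on their rank in the deposited values, and are all genes of the GENCODE M21 annotation with a symbol starting with Ighv whose row could be named: 69 of the 99 listed in the table and of the 185 annotated.

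Names had to be placed by rank, because the gene identifiers stand beside values of other genes in the deposited table. Identifiers were ranked by the K79S value printed beside them and rows by W83S, and an identifier was moved to the row of the same rank, with small offsets fixed for each range of ranks. The W83S values therefore chose which segments could be named, and the 30 segments that were not placed all ranked below the last range. W83S ended at 0.954 FPKM among the named rows. Segments just outside it have no row that can be named, and the 2 just inside were Ighv5-9, with 1.01 FPKM in W83S, and Ighv13-2, with 0.972 FPKM. No segment was tied with another row in either ranking. Of the members, 42 have a single annotated transcript, and all 42 stood on rows printed with at most 6 decimals, against 15 of 42 on the row above and 15 of 42 on the row below. The decimals had also served to set the offsets. As a check outside the rule, the 4 placed genes of the B cell list (Cd79a, Cd79b, Ly6d and Spib) were all highest in K82S on their own rows, and 0 and 1 of them were on the rows above and below.

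A heavy chain variable exon is assembled in each B cell from one V, one D and one J segment, and the V segment supplies most of the domain that touches antigen. A V segment is strongly transcribed once it has been joined near the enhancers of the constant region, so its mRNA in a tissue comes from B cells and, above all, from plasma cells. In the small intestine these are mostly plasma cells of the lamina propria that secrete IgA, which the epithelium carries into the lumen. Each clone keeps the V segment it has joined, so the levels of the segments describe both how much heavy chain mRNA is present and which segments carry it. In bulk RNA fewer cells of a type and less RNA per cell cannot be told apart.

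The locus covers chromosome 12 of GRCm38 (mm10) from 113572927 to 116010093, all 69 members lie on its minus strand, and D and J segments lie next to its lower end. Each member has 2 exons in its longest annotated transcript, of which the second, the V exon, codes for nearly the whole segment. Segments of a family are alike, and with reads of 50 bases a stretch that is identical in 2 segments cannot be assigned to either. The last 300 bases of the V exon are shown for 5 segments on which the results turn, in 5′ to 3′ direction, from GENCODE M21 transcripts. Capitals mark bases inside a stretch of at least 50 bases found letter for letter in another annotated Ighv gene, and lower case marks bases covered by unshared stretches alone. Ighv1-26 (chr12:114788372-114788671) was the leading segment of 3 libraries, and Ighv1-81 (chr12:115920279-115920578) had the largest difference between KO and WT. Ighv5-16 (chr12:113838526-113838825) stood high in 1 KO mouse. Ighv14-1 (chr12:113931953-113932252) and Ighv14-2 (chr12:113994469-113994768) are shown together because each is the closest match of the other.
Ighv1-26: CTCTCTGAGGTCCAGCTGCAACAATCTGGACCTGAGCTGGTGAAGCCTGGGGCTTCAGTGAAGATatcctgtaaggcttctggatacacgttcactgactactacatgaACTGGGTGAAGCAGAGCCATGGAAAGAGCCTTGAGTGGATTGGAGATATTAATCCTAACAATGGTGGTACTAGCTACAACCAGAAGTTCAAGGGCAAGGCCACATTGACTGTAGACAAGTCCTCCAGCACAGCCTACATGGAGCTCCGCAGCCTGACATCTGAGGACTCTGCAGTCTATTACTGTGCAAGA
Ighv1-81: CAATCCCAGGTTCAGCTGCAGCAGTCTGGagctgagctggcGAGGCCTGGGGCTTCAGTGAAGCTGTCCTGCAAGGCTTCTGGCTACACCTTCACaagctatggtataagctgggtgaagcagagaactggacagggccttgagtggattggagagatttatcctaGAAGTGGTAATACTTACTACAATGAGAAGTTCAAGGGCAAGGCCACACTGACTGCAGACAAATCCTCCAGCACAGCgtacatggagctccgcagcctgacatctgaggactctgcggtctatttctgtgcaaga
Ighv5-16: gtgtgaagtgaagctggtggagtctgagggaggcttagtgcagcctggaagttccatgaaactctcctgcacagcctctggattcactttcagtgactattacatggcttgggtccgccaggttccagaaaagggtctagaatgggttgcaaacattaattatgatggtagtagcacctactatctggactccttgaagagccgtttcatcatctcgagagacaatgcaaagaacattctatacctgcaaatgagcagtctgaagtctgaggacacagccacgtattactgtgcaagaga
Ighv14-1: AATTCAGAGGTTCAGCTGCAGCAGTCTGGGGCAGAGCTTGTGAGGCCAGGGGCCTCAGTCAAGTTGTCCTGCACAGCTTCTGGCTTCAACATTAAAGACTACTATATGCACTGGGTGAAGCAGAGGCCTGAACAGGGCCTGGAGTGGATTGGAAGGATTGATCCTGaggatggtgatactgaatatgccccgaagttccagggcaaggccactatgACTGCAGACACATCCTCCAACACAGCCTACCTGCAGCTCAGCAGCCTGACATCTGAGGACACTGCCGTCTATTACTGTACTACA
Ighv14-2: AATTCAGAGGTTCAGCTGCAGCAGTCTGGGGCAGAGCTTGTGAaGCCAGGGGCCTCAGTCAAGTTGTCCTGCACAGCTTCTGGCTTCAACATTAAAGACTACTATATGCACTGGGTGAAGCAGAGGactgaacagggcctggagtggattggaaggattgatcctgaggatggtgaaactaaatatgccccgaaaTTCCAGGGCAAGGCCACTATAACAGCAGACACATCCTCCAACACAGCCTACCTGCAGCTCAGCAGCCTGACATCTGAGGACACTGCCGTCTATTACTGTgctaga
In these windows 256 of 300 bases of Ighv1-26 (85.3%), 250 of Ighv14-1 (83.3%), 224 of Ighv14-2 (74.7%) and 159 of Ighv1-81 (53.0%) lay in such shared stretches, while Ighv5-16 had 0 of 300. Over the whole transcript, the median member shared 24.3% of its 50-base windows with another Ighv gene. Sharing was above 50% in 10 segments and above 90% in 3 (Ighv1-71, Ighv1-72 and Ighv1-62-2, named here after their values were seen), whose own levels are therefore uncertain.

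The columns summed to between 393152 and 495362 FPKM, and as FPKM keeps no reads per gene, the counting error of a value is unknown. Enpp7 had 605, 129 and 669.7 FPKM (KO) against 406, 667 and 495 FPKM (WT), with K82S the lowest library. A level summed over the gene cannot tell whether exon 2 was lost. W83S stood apart: 7 placed genes of gastric epithelium summed to 41019 FPKM there (8.48% of the library) and to 5.72 FPKM or less elsewhere, and 5 placed genes of pancreatic acinar cells to 12537 FPKM against 85.8 FPKM or less. In the lists, Tff1, Pgc and Gkn1 (gastric secreted proteins) and Clps, Pla2g1b and Cela1 (pancreatic enzymes and a cofactor) had the highest means. The 10 enterocyte markers were all present, with sums of 25187 to 37685 FPKM in KO and 31056 to 34040 FPKM in WT, led by Apoa1, Fabp2 and Apoa4. Ddx3y, a Y-linked gene chosen after its values were seen, had 0.0279 FPKM in K79S and 2.93 to 4.01 FPKM in the other 5 libraries, so K79S may come from a mouse of another sex than the rest. Without K79S the log2 ratio of the summed Ighv FPKM was 1.37 (1.18 with all libraries) and 0 segments passed the test.

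Ighv mRNA was higher in the KO mice. The 69 segments summed to 509.6, 840 and 786 FPKM among the KO mice, against 352, 374 and 218 FPKM among the WT mice. Every KO library lay above every WT library, K79S by the smallest margin. The means were 712 ± 177 FPKM for KO against 315 ± 84.5 FPKM for WT (SD, n = 3 each), a ratio of 2.26, which was 2.41 without W83S and 2.06 without K82S. As a share of all FPKM of a library the segments made up 0.130% to 0.187% in KO and 0.0460% to 0.0754% in WT. The median segment had 3.76, 6.53 and 4.60 FPKM among the KO mice, against 2.62, 2.89 and 1.996 FPKM among the WT mice. These medians did not overlap either. No p-value is given for a sum, since the members were chosen with earlier results of these data known.

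The constant region of IgA (Igha) and the chain that joins IgA molecules (Jchain) had smaller ratios of means than the Ighv sum, 1.55 and 1.66, a difference that was not tested. Igha had 605, 850 and 1041 FPKM among the KO mice, against 592, 515 and 507 FPKM among the WT mice. The lowest KO library was thus just above the highest WT library. The log2 fold change of Igha was 0.60 with all libraries and 0.67 without W83S (standard error 0.25 in the former, adjusted p = 0.393 and 0.542 from limma). Jchain had 60.2, 162 and 122 FPKM (KO) against 76.7, 71.7 and 59.4 FPKM (WT), with K79S among the WT values. Divided by Igha of the same library, the Ighv sum was 0.843, 0.988 and 0.755 in KO and 0.595, 0.725 and 0.430 in WT, without overlap. The ratio to Igkc, the kappa constant region, was 0.438, 0.268 and 0.349 in KO and 0.215, 0.259 and 0.156 in WT, again without overlap. Divided by Jchain the groups overlapped, because K82S (5.17) lay just under W89S (5.21). On the 3 scales the mean of KO was 1.48, 1.67 and 1.49 times that of WT.

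**Figure D1:**
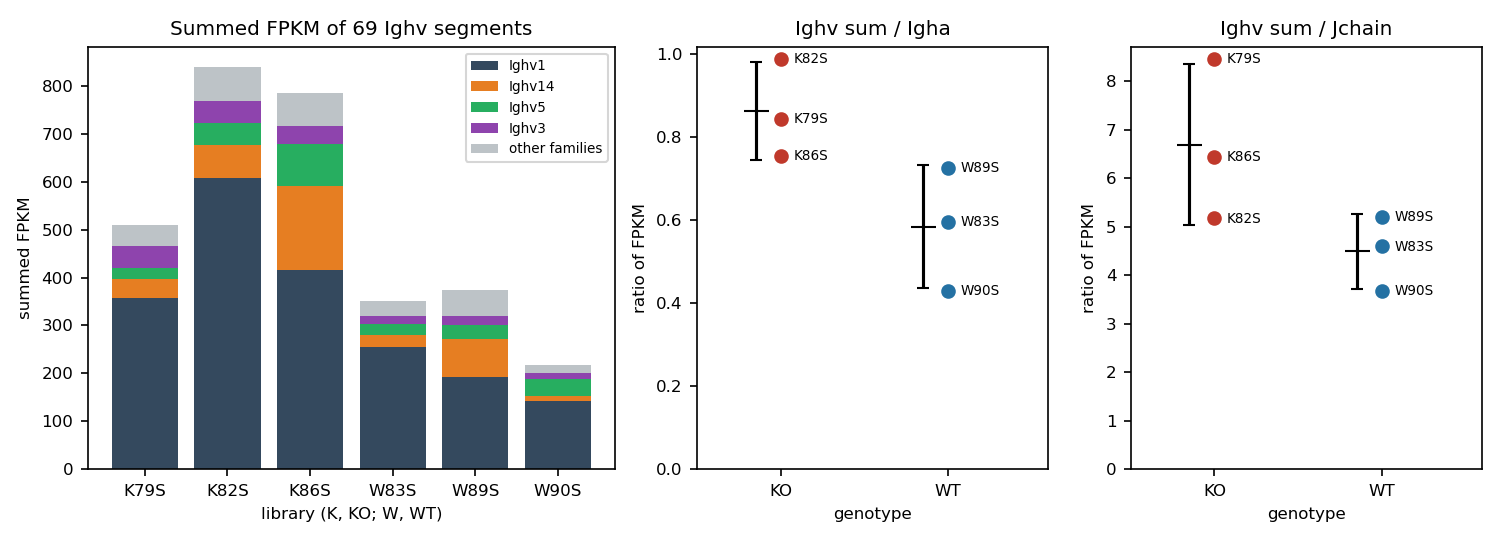
Left, FPKM of the 69 Ighv segments summed per library and stacked by family; middle and right, this sum divided by the FPKM of Igha or Jchain in the same library, each point 1 library, with mean and SD of 3 libraries as the black bar. The KO libraries sum to 509.6 to 840 FPKM and the WT libraries to 218 to 374 FPKM, and the ratio to Jchain overlaps where the ratio to Igha does not.

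Single segments were tested on log2(FPKM + 1) with limma over all rows with at least 1 FPKM in 2 libraries, with a threshold of 0.05 on the adjusted p and of 1.5 on the fold in either direction. As W83S placed the names, the test that does not use it is the fit to the other 5 libraries, where 66 segments remained, 7 of them because of KO libraries alone, so that a difference was built into those 7 and the counts over the 66 are a description. There 0 of 66 segments passed (background 0.00% of 12894 rows), while 18 had an unadjusted limma p under 0.05, all higher in KO. Of all rows 1.75% were higher in KO at this p, and 6.89% were lower. The log2 fold change was above 0 in 56 of 66 segments (background 40.0%), with a median of 0.87 beside -0.07 over all rows. All KO libraries lay above W89S and W90S in 25 of the 66 segments, against 7.75% of rows. They lay below them in 1 segment, against 20.7% of rows. Without the 7 segments, 15 of 59 had such a p, 19 lay above in all KO libraries, 49 had a log2 fold change above 0 and the median was 0.82, beside 1.39%, 6.99% and 38.8% of the 12648 rows kept in the same way and their median of -0.08. With no filter, so that every member was counted, these numbers were 19, 26 and 59 of 69 with a median of 0.83, beside 1.72%, 8.11% and 44.6% of 22700 rows and a median of -0.02, and 0 segments passed. The segment that lay below is Ighv1-83, an annotated pseudogene named here after its values were seen, with 0.767, 1.53 and 0.709 FPKM (KO) against 1.07, 1.67 and 2.13 FPKM (WT).

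The fit with all 6 libraries, as in the design of the study, includes the W83S values by which the members were chosen, and its counts are a description from which nothing is read. All 69 segments were tested and 0 passed (background 0.00764%, or 1 of 13089 rows). In this fit 17 segments had an unadjusted limma p under 0.05, all higher in KO, where 2.87% of all rows were, and 0 were lower, where 9.64% of rows were. The log2 fold change was above 0 in 61 of 69 segments (background 42.3%), and its median was 0.70 beside -0.06 over all rows. The lowest KO library exceeded the highest WT library in 15 segments (background 5.90%) and the reverse held for 0 (background 11.3%). Without K82S, but still with W83S among the 3 WT libraries, 4 of 67 segments passed, all higher in KO (Ighv3-6, Ighv9-3, Ighv1-81 and Ighv1-21), beside 0.400% of rows that were higher and 9.28% that passed in either direction. When W83S and K82S were both left out, 8 of 62 passed, again all higher, beside 0.336% of rows that were higher and 8.88% that passed in either direction. Of the 58 among them that did not pass the filter through KO libraries alone, 6 passed, beside 0.210% of 12401 rows.

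**Figure D2:**
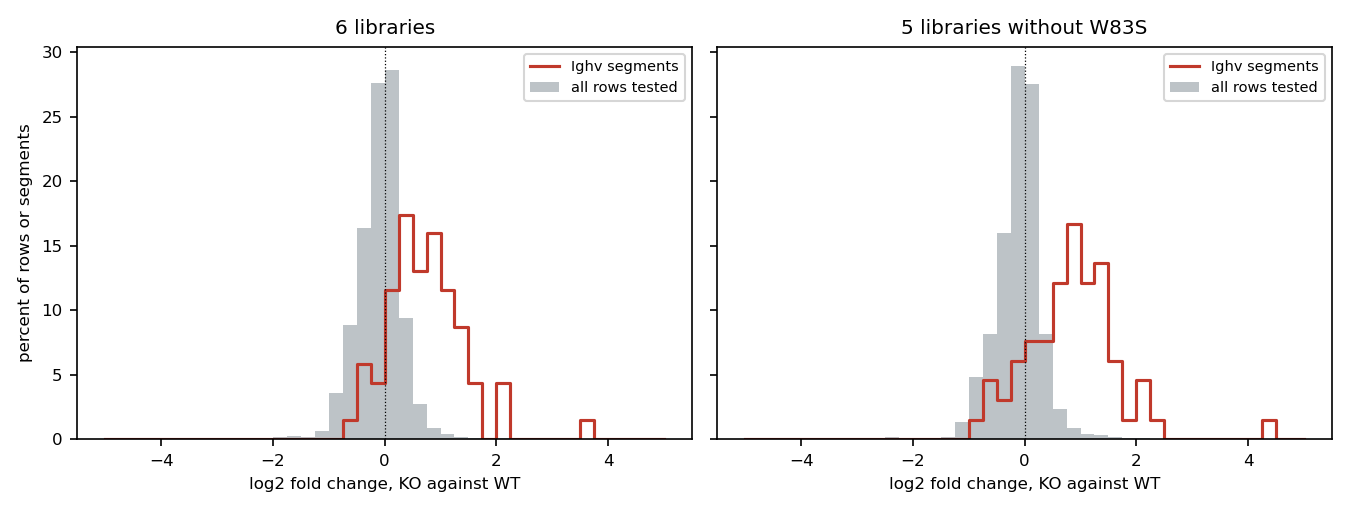
Percent of all tested rows (grey bars) and of Ighv segments (red line) in bins of the log2 fold change, KO against WT, with all 6 libraries on the left and without W83S on the right. The rows centre near 0 (medians -0.06 and -0.07) and the segments lie to the right of them (medians 0.70 and 0.87).

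Ighv1-81 stood out among the segments high in every KO mouse. Its FPKM was 41.1, 56.5 and 74.3 among the KO mice, against 9.23, 2.96 and 0.928 among the WT mice. The lowest KO library was over 4 times the highest WT library, and W83S held most of the WT signal. Means were 57.3 ± 16.6 FPKM for KO against 4.37 ± 4.33 FPKM for WT (SD, n = 3 each), a ratio of 13.1. In the fit without W83S the log2 fold change reached 4.36 ± 0.39 (limma estimate and standard error, adjusted p = 0.228). When K82S was left out instead and W83S kept, it was 3.72 and passed (adjusted p = 0.0377 from limma, 0.0335 to 0.760 over all alternatives). That fit includes the W83S values by which the members were chosen, so this pass is a description. Ighv1-81 made up 8.07%, 6.73% and 9.46% of the Ighv sum in KO and 2.62%, 0.793% and 0.426% in WT, so its share was higher too. It shared 11.6% of its 50-base windows with other segments. Ighv1-80, which lies next to it in the locus, had 17.3, 17.1 and 12.1 FPKM (KO) against 9.21, 2.89 and 2.25 FPKM (WT), a log2 fold change of 2.20 without W83S (standard error 0.22, adjusted p = 0.278 from limma).

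Ighv3-6 varied little among the mice of a genotype. It had 28.8, 37.9 and 36.2 FPKM among the KO mice, against 13.8, 14.1 and 9.90 FPKM among the WT mice. The groups were well apart, at 34.3 ± 4.84 FPKM for KO against 12.6 ± 2.33 FPKM for WT (SD, n = 3 each). The log2 fold change was 1.45 without W83S (standard error 0.24, adjusted p = 0.542 from limma) and 1.31 without K82S but with W83S, where it passed (adjusted p = 0.0319 from limma, 0.0319 to 0.716 over all alternatives). As W83S values chose the members, this pass is a description. The share of Ighv3-6 in the Ighv sum was 4.51% to 5.65% in KO and 3.76% to 4.55% in WT, which overlapped. Only 3.32% of its 50-base windows were shared.

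Ighv1-26 was the most abundant segment over the 5 libraries other than W83S. It had 50.8, 82.4 and 41.0 FPKM among the KO mice, against 29.4, 34.5 and 29.1 FPKM among the WT mice. All KO values lay above the WT values, which were close together (31.0 ± 3.02 FPKM, SD, n = 3), and the ratio of means was 1.87. Its share of the Ighv sum was 5.21% to 9.96% in KO and 8.35% to 13.3% in WT, which overlapped. Of its 50-base windows 49.0% were shared.

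Further segments without overlap between genotypes were less abundant. Ighv14-4 had 8.05, 19.3 and 13.1 FPKM (KO) against 2.24, 4.65 and 0.832 FPKM (WT), a ratio of means of 5.24. Ighv2-2 had 11.9, 7.90 and 6.05 FPKM (KO) against 2.18, 3.45 and 1.16 FPKM (WT), a ratio of 3.81. Ighv1-64 had 14.5, 19.6 and 27.3 FPKM (KO) against 10.5, 9.07 and 4.64 FPKM (WT), a ratio of 2.54. For these 3 segments no WT library reached the lowest KO library. Ighv9-3 had 5.85, 11.7 and 4.72 FPKM (KO) against 1.94, 2.33 and 2.66 FPKM (WT), and Ighv1-21, an annotated pseudogene, had 5.67, 9.52 and 6.18 FPKM (KO) against 2.97, 3.89 and 2.92 FPKM (WT). Both passed without K82S but with W83S (adjusted p = 0.0333 and 0.0455 from limma), and over the alternatives their adjusted p reached 0.760. These passes too are a description, as that fit includes W83S. Ighv1-18, Ighv1-52, Ighv1-71, Ighv1-77 and Ighv5-6 complete the 15 and are named after their values were seen. Their ratios of means ran from 1.85 (Ighv1-71) to 4.12 (Ighv5-6).

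**Figure D3:**
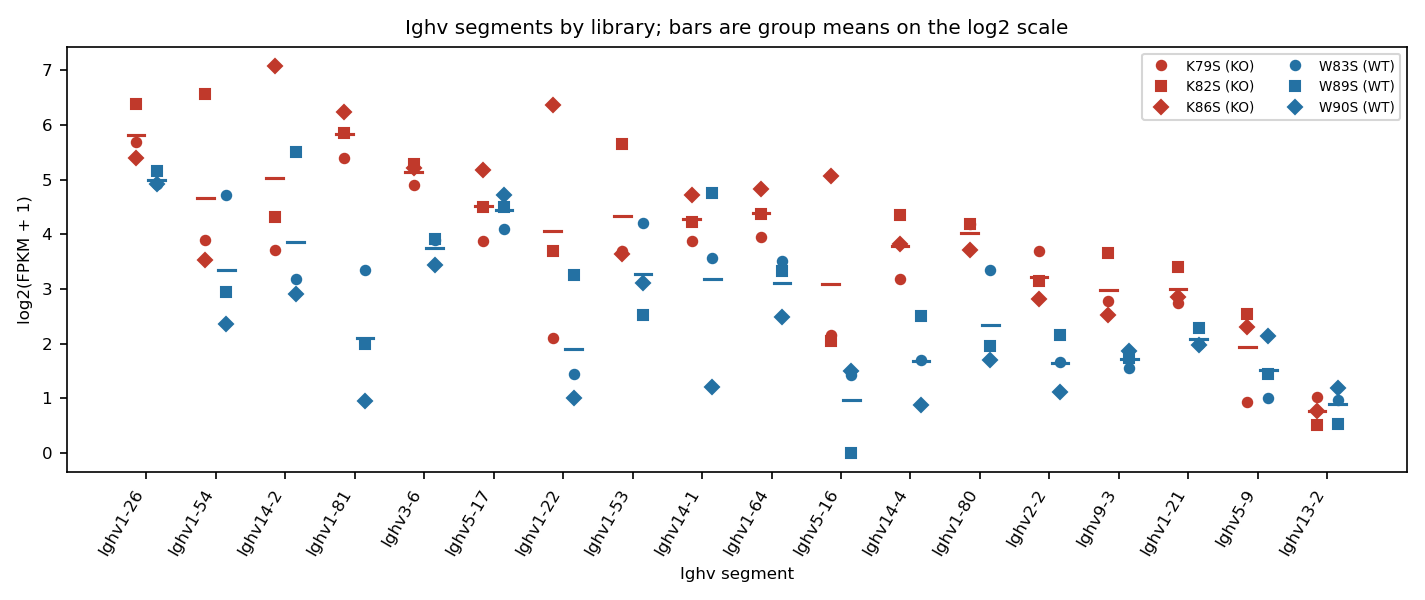
log2(FPKM + 1) of the 18 segments taken by the naming rule, each point 1 library (red KO, blue WT) and each short bar the mean of 3 libraries on this scale. The red points of Ighv1-81 and Ighv3-6 lie together and above the blue points, while those of Ighv14-2, Ighv1-22, Ighv1-54 and Ighv5-16 are spread by 1 high KO library.

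Other segments were high in a single mouse. In 8 segments the highest library was over 3 times the next, with K82S the highest in 3 of them and K86S in 5. The same was not counted over all rows. Ighv14-2 led K86S with 133 FPKM, 17.0% of its Ighv sum, while K79S and K82S had 12.03 and 18.9 FPKM, and W83S, W89S and W90S had 8.06, 44.1 and 6.52 FPKM. It also led W89S, a WT library, where it held 11.8% of the sum, and the groups overlapped. Ighv1-22 had 80.9 FPKM in K86S, 3.31 and 11.9 FPKM in K79S and K82S, and 1.72, 8.56 and 1.02 FPKM in WT. Its ratio of means, 8.51, therefore rested on K86S. Ighv5-16 had 32.6 FPKM in K86S, 3.48 and 3.13 FPKM in K79S and K82S, 1.69 and 1.82 FPKM in W83S and W90S, and was listed at 0 in W89S. Although its genotypes did not overlap, the KO mean of 13.1 ± 16.9 FPKM (SD, n = 3) came mostly from 1 mouse.

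K82S had its own leading segment. Ighv1-54 reached 94.1 FPKM there (11.2% of the Ighv sum), with 13.9 and 10.6 FPKM in K79S and K86S and 25.4, 6.73 and 4.15 FPKM in W83S, W89S and W90S. Its log2 fold change of 1.32 with all libraries was 0.37 without K82S and 2.01 without W83S. Ighv1-53, which lies 2 genes from it in the order of the locus, had 11.96, 49.5 and 11.5 FPKM (KO) against 17.4, 4.76 and 7.58 FPKM (WT). In both segments K79S and K86S lay below W83S. K82S was the highest library for 30 of the 69 segments, K79S and K86S for 13 each, W89S for 5, and W83S and W90S for 4 each. The lowest library was W90S for 31 segments. These counts were not taken over all rows, so they are not read as particular to the segments.

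Some abundant segments did not separate the genotypes. Ighv5-17 had 13.7, 21.5 and 35.1 FPKM (KO) against 16.0, 21.6 and 25.3 FPKM (WT), a log2 fold change of 0.08 with all libraries and -0.09 without W83S (standard errors 0.35 and 0.39). Ighv14-1 had 13.8, 17.6 and 25.2 FPKM (KO) against 10.9, 25.8 and 1.32 FPKM (WT), and W89S was its highest library. As its closest match, Ighv14-2 shares 29.1% of its windows. At the low end, Ighv5-9 had 0.918, 4.86 and 3.97 FPKM (KO) against 1.01, 1.71 and 3.41 FPKM (WT), and Ighv13-2 had 1.03, 0.436 and 0.695 FPKM (KO) against 0.972, 0.450 and 1.27 FPKM (WT). Both overlapped. The 51 segments not taken by the rule had mean FPKM of 0.715 to 16.1 over the 6 libraries. With all 6 libraries their log2 fold changes ran from -0.71 to 1.51, above 0 in 44, where 42.3% of all rows were above 0. Of all segments, 14 were listed at 0 in at least 1 library, 8 of them in a KO library and 7 in a WT library.

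How evenly the segments were used overlapped between genotypes. The leading segment held 9.96%, 11.2% and 17.0% of the Ighv sum in K79S, K82S and K86S and 8.35%, 11.8% and 13.3% in W83S, W89S and W90S. The effective number of segments, the inverse of the summed squared shares (inverse Simpson index), was 26.9, 23.0 and 15.6 in KO and 29.6, 22.1 and 21.4 in WT. These ranges overlapped, with K86S the most concentrated library. Across the 69 segments, the correlation of log2(FPKM + 1) between 2 libraries was 0.518 to 0.692 for KO pairs, 0.517 to 0.550 for WT pairs and 0.468 to 0.727 for mixed pairs, a description over segments that share each library. Over all 13089 rows the same correlations were 0.926 to 0.966 for KO pairs, 0.948 to 0.965 for WT pairs and 0.933 to 0.968 for mixed pairs. The lowest was that of K82S with K86S and the highest that of K82S with W89S, a WT library.

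**Figure D4:**
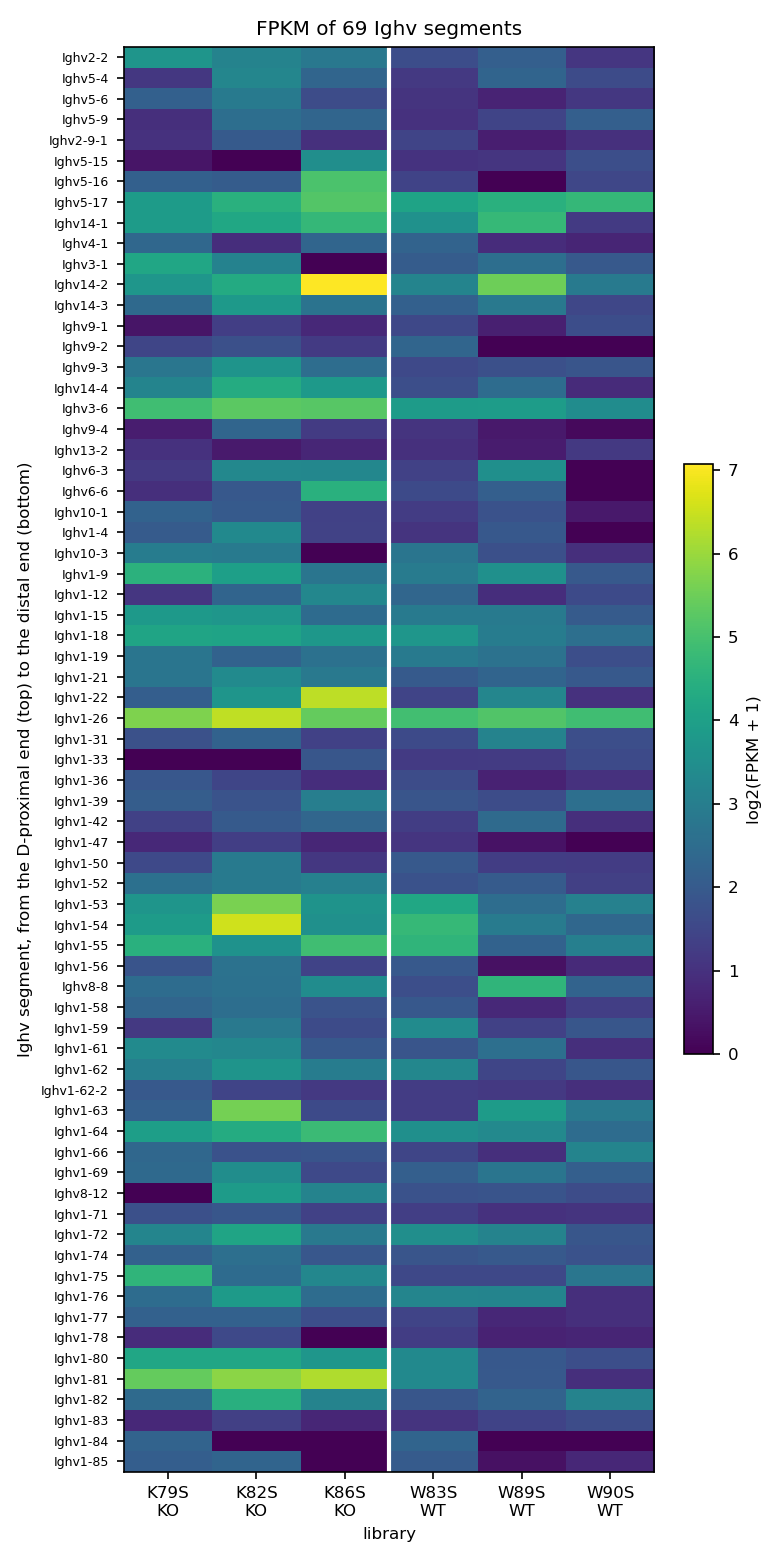
log2(FPKM + 1) of each of the 69 Ighv segments (rows, in the order of the locus from the end next to the D segments) in each library (columns, KO left of the white line). Ighv1-26, Ighv3-6 and Ighv1-81 are bright in all 3 KO libraries, and the brightest cell is Ighv14-2 in K86S (133 FPKM).

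Families group segments by sequence likeness and are given by the first number of the symbol. Ighv1, the largest family, which fills the distal part of the locus, had 43 members here, and its summed FPKM was 358, 609 and 415 in KO and 256, 191 and 142 in WT. It did not overlap between genotypes, with a ratio of means of 2.35. With all 6 libraries 37 of its members had a log2 fold change above 0, where 42.3% of all rows did. Without W83S 35 of 40 members did, beside 40.0% of rows. Ighv1 held 70.3%, 72.5% and 52.8% of the Ighv sum in KO and 72.6%, 51.2% and 65.3% in WT. The share of Ighv1 thus overlapped while its level did not.

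Among the smaller families, Ighv3 (2 members) summed to 45.9, 45.6 and 36.2 FPKM (KO) against 16.9, 18.9 and 12.9 FPKM (WT), and Ighv2 (2 members), which lies near the D segments, to 12.9, 10.9 and 7.03 FPKM and 3.89, 3.96 and 2.13 FPKM. Neither overlapped, with ratios of means of 2.62 and 3.09. Ighv14 (4 members) summed to 38.2, 68.9 and 177 FPKM (KO) against 24.7, 80.9 and 10.5 FPKM (WT), following Ighv14-2 in K86S and W89S. Ighv5 (6 members) summed to 23.2, 44.5 and 88.1 FPKM (KO) against 22.1, 29.0 and 36.0 FPKM (WT). In these 2 families the groups overlapped, and so they did in Ighv4, Ighv6, Ighv8, Ighv9, Ighv10 and Ighv13, with ratios of means between 0.801 (Ighv13, 1 member) and 2.51 (Ighv6, 2 members). Without W83S the ratio was 0.864 for Ighv8 and 0.835 for Ighv13, and above 1 for the rest.

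The difference was spread along the locus. With the members cut by position into 3 groups of 23, the median log2 fold change was 0.79 next to the D segments, 0.73 in the middle and 0.54 at the distal end, and 0.83, 0.87 and 0.88 without W83S. With all 6 libraries 19 to 21 segments of each group had a fold change above 0, where 42.3% of all rows did. As that fit includes W83S, these counts are a description. In the same fit, of 9 segments with under 10% of windows shared, 8 were above 0, with a median of 0.85. Of 10 segments with over 50% shared, 9 were above 0, with a median of 0.78. The part of reads shared between segments in these values was not tested. The 4 annotated pseudogenes among the members summed to 8.70 to 22.7 FPKM per library, and 2 of them had a fold change above 0.

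**Figure D5:**
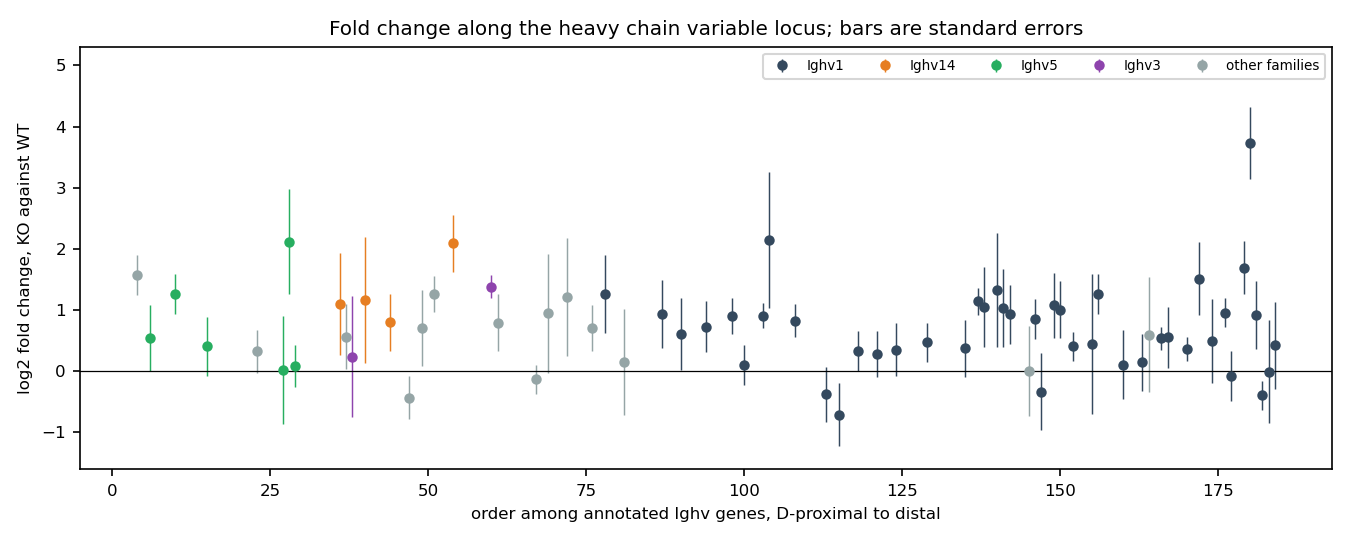
log2 fold change of each Ighv segment (KO against WT, 6 libraries, bars 1 standard error) against its order among the annotated Ighv genes, coloured by family. Points lie mostly above 0 from one end to the other (61 of 69, beside 42.3% of all rows), and the highest is Ighv1-81 at 3.73.

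Genes of antibody production and of the B lineage were read beside the segments, with T cell, gastric, pancreatic and enterocyte genes. The 12 lists held 136 genes, of which 66 could be placed. None of the placed genes passed the threshold with all 6 libraries or without W83S. Of the heavy constant list 3 of 8 were placed. Ighm, the constant region of IgM, had 9.67, 102 and 11.1 FPKM (KO) against 16.5, 30.9 and 48.1 FPKM (WT), and Ighg2b had 1.73, 72.6 and 2.75 FPKM and 1.78, 10.8 and 12.4 FPKM. Both were highest in K82S and lower in K79S and K86S than in W89S and W90S, unlike the Ighv sum. Of the light chain list 4 of 7 were placed, and Igkc had 1165, 3135 and 2253 FPKM (KO) against 1636, 1444 and 1397 FPKM (WT). The lambda regions Iglc1 and Iglc2 had means of 146 and 12.9 FPKM (KO) against 153 and 10.2 FPKM (WT).

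Markers of B cells overlapped between genotypes and stood highest in K82S. The 4 placed of 18 had a median log2 fold change of -0.44 with all 6 libraries and -0.95 without W83S. They summed to 9.11, 105 and 14.6 FPKM among the KO mice, against 27.5, 42.3 and 69.6 FPKM among the WT mice. Cd79a and Cd79b, the signal chains of the B cell receptor, had 33.1 and 28.2 FPKM in K82S, and Cd79a had 2.32 and 3.83 FPKM in K79S and K86S. K79S and K86S thus had the highest Ighv sums beside the lowest B cell sums among the 5 libraries other than K82S. Without K82S the ratio of the Ighv sums was 2.06, as given above, and the part of B cells in the result was not tested.

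Of the plasma cell list 11 of 17 were placed and 10 tested. With all 6 libraries 5 had a log2 fold change above 0, and the median was 0.04 (all rows -0.06). In that fit 1 gene in each direction had an unadjusted limma p under 0.05. Without W83S the median was -0.04 (all rows -0.07). The placed genes summed to 243 to 420 FPKM in KO and 257 to 285 FPKM in WT. Xbp1 and Txndc5, which work in the secretory pathway and are expressed in epithelium too, had means of 45.5 and 46.8 FPKM (KO) against 46.1 and 40.3 FPKM (WT). Mzb1, a chaperone of antibody secretion, had 2.60, 16.8 and 4.04 FPKM (KO) against 4.45, 7.30 and 9.34 FPKM (WT). Like Ighm, it was highest in K82S. Prdm1, the transcription factor of plasma cell differentiation, also present in other cells, had 2.56, 3.64 and 2.55 FPKM (KO) against 1.62, 1.25 and 1.21 FPKM (WT) (adjusted p = 0.393 from limma). Fkbp11, a folding factor of the secretory pathway, had 0.526, 1.49 and 0.362 FPKM (KO) against 1.96, 1.43 and 1.63 FPKM (WT) (adjusted p = 0.393 from limma). With all 6 libraries it was thus the gene of the list with an unadjusted limma p under 0.05 and lower values in KO. Without W83S the unadjusted limma p was 0.121 for Fkbp11 and 0.00617 for Prdm1. Creld2 and Sec11c, of the same pathway, had means of 35.5 and 12.2 FPKM (KO) against 47.6 and 16.4 FPKM (WT), and both overlapped. Mzb1, Prdm1, Fkbp11, Creld2 and Sec11c are named outside the rule, after their values were seen.

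For the transport and homing of IgA, 7 of 14 genes were placed. Pigr, the epithelial receptor that carries IgA, had 778, 853 and 893 FPKM (KO) against 799, 513 and 949 FPKM (WT). Ccl25, a chemokine of the small intestine, had means of 70.9 and 97.2 FPKM in KO and WT. Tnfsf13, a survival factor of plasma cells, had means of 11.6 and 13.8 FPKM in KO and WT. All 3 overlapped. Itgb7, named here after its values were seen, had 5.17, 7.79 and 4.81 FPKM (KO) against 2.69, 3.92 and 4.15 FPKM (WT). It was the 1 gene of this list without overlap. Its unadjusted limma p was 0.0312 with all 6 libraries and 0.103 without W83S. For Ccl25, lower in KO, these were 0.0700 and 0.0403. Of the factors that act on immunoglobulin genes, 4 of 9 were placed, and Irf8, Tcf3 and Ctcf had means of 21.1, 12.1 and 6.88 FPKM (KO) against 14.02, 11.1 and 5.98 FPKM (WT). The germinal centre list (3 of 13 placed) and the list of follicle stroma and M cells (3 of 10 placed) had sums of 4.05 to 6.79 FPKM and 8.67 to 27.8 FPKM in KO and of 3.98 to 5.92 FPKM and 17.5 to 33.9 FPKM in WT. With all 6 libraries the median log2 fold change was 0.12 for transport and homing, 0.16 for the factors and 0.18 for the germinal centre. It was -0.18 for follicle stroma and M cells, 0.26 for the heavy constant list and -0.09 for the light chain list. Without W83S these medians were -0.04, 0.01, 0.32, -0.51, -0.47 and -0.29 in this order. The placed germinal centre and follicle genes were Msh6, Bcl6 and Rgs13, and Anxa5, Spib and Ccl20.

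Markers of T cells stood higher in the KO mice, as the Ighv sum did. The 6 placed of 10 summed to 29.7, 47.4 and 25.7 FPKM among the KO mice, against 21.03, 18.6 and 19.2 FPKM among the WT mice, without overlap. All 6 had a log2 fold change above 0 (median 0.61 with all libraries and 0.64 without W83S). With all libraries 5 had an unadjusted limma p under 0.05 (background 2.87%), and 5 did not overlap (background 5.90%). That fit includes W83S, so these counts are a description. Without W83S the unadjusted limma p was 0.055 for Lck and 0.392 for Trac, and under 0.05 for the rest (background 1.75%). Lck is named here after its values were seen. Cd8a, a marker of cytotoxic T cells, had 7.04, 11.1 and 6.05 FPKM (KO) against 5.44, 3.84 and 3.87 FPKM (WT), and Cd3g, a chain of the T cell receptor complex, had 4.85, 7.53 and 5.06 FPKM and 3.64, 3.20 and 3.61 FPKM. Trac, the constant region of the receptor, had 5.04, 11.8 and 4.40 FPKM (KO) against 4.11, 4.71 and 4.95 FPKM (WT), which overlapped. The part of other lymphoid cells in the difference of the Ighv sums was not tested.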

How the data were processed

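RNA of the middle small intestinal mucosa of 3 KO and 3 WT mice was sequenced as 50 base single-end reads. Adapters were removed with trim-galore, HISAT2 aligned the reads to mm10, and StringTie measured the genes. The authors deposited 1 FPKM value per gene and library. Tool versions, the gene models and the strand setting are not given in the sources used here. The edgeR test of the study needs counts and was not run on FPKM. Precision rests on the spread between mice.

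Names were restored by rank as described in the report, with symbols from GENCODE M21, for 12402 of 22700 rows. Rows with at least 1 FPKM in 2 libraries were kept for limma 3.58.1 (R 4.3.3), run on log2(FPKM + 1) (mean-variance trend, Benjamini-Hochberg adjustment over all rows). This was done with all 6 libraries and without W83S. A pseudocount of 1 understates the change of low segments. The fit was tested on simulated data with changes larger than the median change of the segments. That test does not tell how often changes as small as this median are called. Shared 50-base windows were counted between annotated Ighv transcripts.

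The members, lists and tests were chosen with earlier results of these data known. The rule for named segments took the leading segment of each library, the 10 with the highest mean over the 5 libraries other than W83S, the 5 largest fold changes in each direction without overlap, those past the threshold with all or 5 libraries, and the 2 just inside the rank limit. Of each list the 3 genes with the highest mean were named. Alternatives were a pseudocount of 0.1, other filters, upper quartile scaling, no trend, array weights and each library left out. Reads that carry somatic mutations, and reads over the junction with D and J, could not be followed in gene FPKM.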

Additional observations from a re-analysis of the deposited data

How the results depend on the processing

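With 3 mice per genotype, calls of single segments depended on which libraries were used. Leaving out 1 library at a time gave 0 to 4 Ighv segments and 0 to 1184 rows past the threshold, the highest of both without K82S, and 18 to 28 segments without overlap between genotypes in either direction (15 with all libraries). The number without overlap exceeded 1.5 times that count without K86S, W83S or W89S (28, 26 and 26). Fewer libraries leave more rows without overlap, so the rise is not read as a result: the share of all rows was 17.2% with all libraries and 28.0%, 28.5% and 30.0% in those 3 fits, beside 21.7%, 40.6%, 39.4% and 37.7% of the segments. Without K82S it was 44.2% of rows and 26.9% of segments. Without W83S and K82S, an alternative chosen after seeing the data, 8 segments and 1111 rows passed and 26 segments did not overlap (41.9%, beside 52.8% of rows). The count of rows was 0 with a pseudocount of 0.1 and 2 with array weights, with 0 segments in both. The median log2 fold change of the segments stayed between 0.52 and 0.87 when 1 library was left out. The log2 ratio of summed Ighv FPKM, 1.18, lay between 0.97 and 1.37 without 1 library, and was 0.58 after division by Jchain, 0.56 after division by Igha and 0.74 after division by Igkc, the latter 2 chosen after seeing the data. The effective number of segments averaged 21.8 in KO and 24.4 in WT by the inverse Simpson index and 34.4 and 38.1 by the Shannon entropy. No paired analysis was possible because the labels do not say which KO mouse belongs to which WT mouse.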
